A study of Mus musculus with 3 samples.

Results

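Vcan, Acan, Hapln1, Has1, Has2, Has3, Cd44, Cemip, Hyal2 and Prg4 are 10 genes that make, bind or break down hyaluronan or build the proteoglycan gel around it. They were chosen by name, and all 10 were found among the 36167 features of the count matrices. Their UMIs (unique molecular identifiers, each counting 1 captured RNA molecule) were followed in nuclei of the mouse aortic valve, by pool and by cell class, in nuclei with at least 1000 UMIs of which at most 5% were mitochondrial.

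The data are single-nucleus RNA counts from aortic valve structures of newborn mice at postnatal day 1, frozen before nuclei were isolated. All mice were of 1 strain, labelled B6.Cg-Scx<tm1.1(EGFP)Skom with the number RBRC11098, which carries an EGFP allele at the tendon transcription factor gene Scx. The labels give neither the number of copies of the allele nor the sex of the pups, and there are no mice without the allele. The single group consists of 3 pools, each of 22 to 24 aortic roots, so animals cannot be told apart within a pool. A difference between classes is judged against how much it varies over the 3 pools. The libraries were made with a kit that measures open chromatin and RNA in the same nuclei, and the chromatin data were not analysed here.

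The matrices held 21140 nuclei and 96513814 UMIs, and 14073 nuclei met the limits on UMIs and mitochondrial share. After 891 likely doublets were set aside, 13182 nuclei were analysed, 3098 to 6473 per pool, with a median of 3340 to 4756 UMIs per nucleus. The share of deposited nuclei over the mitochondrial limit was 28.6%, 41.8% and 14.1% in pools 1, 2 and 3. Pairs of pools shared 44 to 99 cell barcodes. Clustering without the 10 genes gave 29 clusters, of which 27 matched marker lists and formed 12 classes, each called "-like" because it was named from markers. Of these, 10 classes had at least 20 nuclei in every pool and were compared. They comprised 2978 smooth muscle-like, 2912 cardiomyocyte-like, 2731 endothelial-like, 1533 valve interstitial-like, 1205 fibroblast-like, 366 mesothelial-like, 260 macrophage-like, 130 pericyte-like, 117 lymphatic endothelial-like and 73 erythroid-like nuclei. A cardiomyocyte-like cluster of 502 nuclei led by Erc2 and Lrrc4c carried 7 of that class's markers, but its leading 10 genes held none of them and 1 neuron marker. Leaving it out, an alternative added after seeing the data, changed no call for a named member in the class comparisons, and Acan and Hyal2 in the cardiomyocyte-like class were then -0.91 and -0.84. The 2 clusters of the valve interstitial-like class carried 7 and 8 of its 8 markers, which include Sox9, Tbx20, Adamts19 and Rmst.

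Hyaluronan is a long sugar chain that hyaluronan synthases (Has1, Has2, Has3) spin out through the cell membrane. Versican (Vcan) and aggrecan (Acan) are large chondroitin sulphate proteoglycans of the lectican family that dock on this chain, and link protein (Hapln1) locks them in place. In the heart, Has2 and versican build the cardiac jelly and the endocardial cushions from which valves form, and the proteoglycan-rich spongiosa layer of the mature leaflet keeps this matrix. CD44 is a cell surface receptor for hyaluronan, hyaluronidase 2 (Hyal2) and Cemip take part in cutting the chain, and lubricin (Prg4) is a lubricating glycoprotein best known from joint surfaces.

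Vcan and Hapln1 are direct neighbours on mouse chromosome 13, Acan lies beside Hapln3, another link protein gene, on chromosome 7, and Hyal2 lies beside Hyal1 on chromosome 9, in the gene order of RefSeq on GRCm38.p6. RefSeq promoters of 300 bases, from 250 before to 50 after the start of transcription, were found for 7 of the 10 genes. Each lectican docks on hyaluronan with the link protein, but the levels of the 3 genes followed different orders of cell classes, described below. For this reason the 3 promoters of the lecticans and the link protein are shown. They are written 5′ to 3′ on the strand of the gene, with GGGCGG (or its reverse complement CCGCCC) and GGAAAA (or TTTTCC) in capitals.
Vcan, chr13:89742463-89742762, minus strand, GRCm38.p6: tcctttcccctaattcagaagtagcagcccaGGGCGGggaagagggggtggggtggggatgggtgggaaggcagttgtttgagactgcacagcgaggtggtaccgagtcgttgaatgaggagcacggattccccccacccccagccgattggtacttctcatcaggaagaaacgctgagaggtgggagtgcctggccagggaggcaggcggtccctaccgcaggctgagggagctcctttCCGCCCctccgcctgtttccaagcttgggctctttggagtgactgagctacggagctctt
Hapln1, chr13:89540386-89540685, plus strand, GRCm38.p6: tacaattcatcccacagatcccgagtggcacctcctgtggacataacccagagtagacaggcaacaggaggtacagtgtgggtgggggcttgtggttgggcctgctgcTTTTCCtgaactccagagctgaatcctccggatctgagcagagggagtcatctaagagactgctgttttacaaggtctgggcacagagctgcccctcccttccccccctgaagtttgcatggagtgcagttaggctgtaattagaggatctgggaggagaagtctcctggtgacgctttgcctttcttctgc
Acan, chr7:79052976-79053275, plus strand, GRCm38.p6: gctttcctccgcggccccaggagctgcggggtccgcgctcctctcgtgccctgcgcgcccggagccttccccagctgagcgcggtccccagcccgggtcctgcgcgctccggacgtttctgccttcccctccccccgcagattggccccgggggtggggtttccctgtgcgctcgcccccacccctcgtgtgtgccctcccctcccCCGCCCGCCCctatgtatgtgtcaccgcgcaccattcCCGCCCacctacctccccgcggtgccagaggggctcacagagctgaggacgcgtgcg
GGGCGG was searched on both strands and stood at 2 places in the Vcan promoter and at 3 in the Acan promoter, where 2 of the matches overlap, and it was not found in the Hapln1 window. GGAAAA stood at 1 place in the Hapln1 promoter and was found in neither of the other two. Of all 32851 promoters of this length, 35.7% held GGGCGG on either strand, 23.4% held GGAAAA and 10.7% held AACAAT, which was in none of these 3 windows. GC bases made up 61% of the Vcan, 54.3% of the Hapln1 and 74% of the Acan window, against a median of 52.7% over all promoters. These matches describe letters in the windows and were not tested as binding sites.

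Levels are given as CPM, the UMIs of a gene per 1000000 UMIs of all genes in a class of a pool. They are not divided by gene length, so they are compared between classes for 1 gene and not between genes. Vcan, the most often counted of the 10 genes with 47927 UMIs in 7460 nuclei, was highest in the valve interstitial-like class, at 2285, 2331 and 2428 CPM in pools 1, 2 and 3 (2348 ± 72.8, SD, n = 3). The endothelial-like class held 1226, 1073 and 1192 CPM and the fibroblast-like class 681, 824 and 628 CPM. The ranges of these 3 classes did not overlap. Below them, smooth muscle-like nuclei had 340.5 ± 60.4 CPM, macrophage-like 281 ± 129, cardiomyocyte-like 212 ± 16.2, mesothelial-like 57.1 ± 18.2 and erythroid-like 46.8 ± 10.3 CPM. The range of the smooth muscle-like pools overlapped with that of the macrophage-like pools.

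Acan, the lectican of cartilage, followed another order. It was highest in the smooth muscle-like class, at 242, 293 and 170.4 CPM (235 ± 61.7), and in the pericyte-like class, at 271, 223 and 164 CPM (219 ± 53.8), and the ranges of these mural classes overlapped. In the valve interstitial-like class it stood at 33.1, 33.9 and 11.6 CPM and in the endothelial-like class at 17.1 ± 2.79 CPM. Every smooth muscle-like pool was above every valve interstitial-like pool.

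Hapln1, the link protein, was highest in the valve interstitial-like class, at 116, 91.1 and 117 CPM (108 ± 14.6), followed by the endothelial-like class, at 71.8, 58.7 and 57.0 CPM (62.5 ± 8.10), and the lymphatic endothelial-like class, at 88.1, 61.1 and 21.0 CPM from 47 UMIs. The valve interstitial-like pools lay above the endothelial-like pools, and the range of the lymphatic pools overlapped with the endothelial-like one. These levels are under the limit on mitochondrial UMIs, and with no limit the ranges of both classes overlapped: the valve interstitial-like class had 114 ± 12.9 CPM and the endothelial-like class 118 ± 7.33 CPM. The fibroblast-like class held 5.66 ± 1.65 CPM and the smooth muscle-like class 6.42 ± 0.804 CPM.

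Among the synthases, Has2, the main cardiac hyaluronan synthase, was highest in the valve interstitial-like class, at 70.3, 66.6 and 103 CPM (80.1 ± 20.3), and next in the fibroblast-like class, at 28.0, 20.1 and 35.1 CPM (27.7 ± 7.51). Endothelial-like nuclei held 11.4 ± 1.33 CPM. Has1 was counted mostly in the mesothelial-like class, the lining of the heart surface, which held 261 of its 435 UMIs, at 68.1, 49.5 and 64.3 CPM (60.6 ± 9.84). The next class by mean, pericyte-like, held 6.29 ± 1.88 CPM from 4 UMIs. Has2 in the mesothelial-like class was 0.453 ± 0.488 CPM, from 2 UMIs, so the mesothelial-like and valve interstitial-like classes differed in which synthase was counted. Has3 had 175 UMIs in all and was under the limit on low counts, so it was not tested. Its largest number of UMIs, 63, came from the endothelial-like class, at 4.63, 4.10 and 4.02 CPM, against 1.22 ± 0.210 CPM in the valve interstitial-like class.

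Cd44 was high in 2 of the compared classes. Macrophage-like nuclei held 246, 396 and 184 CPM (275 ± 109) and valve interstitial-like nuclei 256, 231 and 235 CPM (241 ± 13.1), and these ranges overlapped. The next class, smooth muscle-like, held 65.1 ± 9.09 CPM.

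Cemip was highest in the mesothelial-like class, at 174, 125 and 182 CPM (160.2 ± 30.6), above the valve interstitial-like (52.2 ± 5.20), endothelial-like (44.6 ± 14.4) and fibroblast-like (38.0 ± 17.6) classes, whose pools overlapped with one another. In the mesothelial-like class 22 of 366 nuclei with 10 or more Cemip UMIs held 56.5% of its 674 UMIs. Hyal2, which is anchored to the cell surface, was highest in the lymphatic endothelial-like class, at 74.6, 84.9 and 42.0 CPM, and in the endothelial-like class, at 70.3, 63.3 and 43.5 CPM (59.0 ± 13.9). These 2 ranges overlapped, and the valve interstitial-like class lay below both at 13.6 ± 3.85 CPM.

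Prg4 was counted mainly in the valve interstitial-like class, which held 498 of 769 UMIs, at 96.4, 69.5 and 71.6 CPM (79.2 ± 14.98). The next class, mesothelial-like, held 11.8 ± 6.27 CPM, and no valve interstitial-like pool overlapped with it. In the valve interstitial-like class Prg4 was found in 166 of 1533 nuclei, and 9 nuclei with 10 or more UMIs held 28.1% of its UMIs.

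Some zeros are limits of depth. The erythroid-like class held 0 UMIs of Hapln1, Has1, Has2, Has3 and Cemip, which allows up to 29.3, 40.7 and 41.0 CPM in the 3 pools. The lymphatic endothelial-like class held 0 UMIs of Has1 and Prg4, which allows up to 10.2, 10.2 and 21.0 CPM. These limits take 3 UMIs per pool and cover counting error only.

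**Figure D1:**
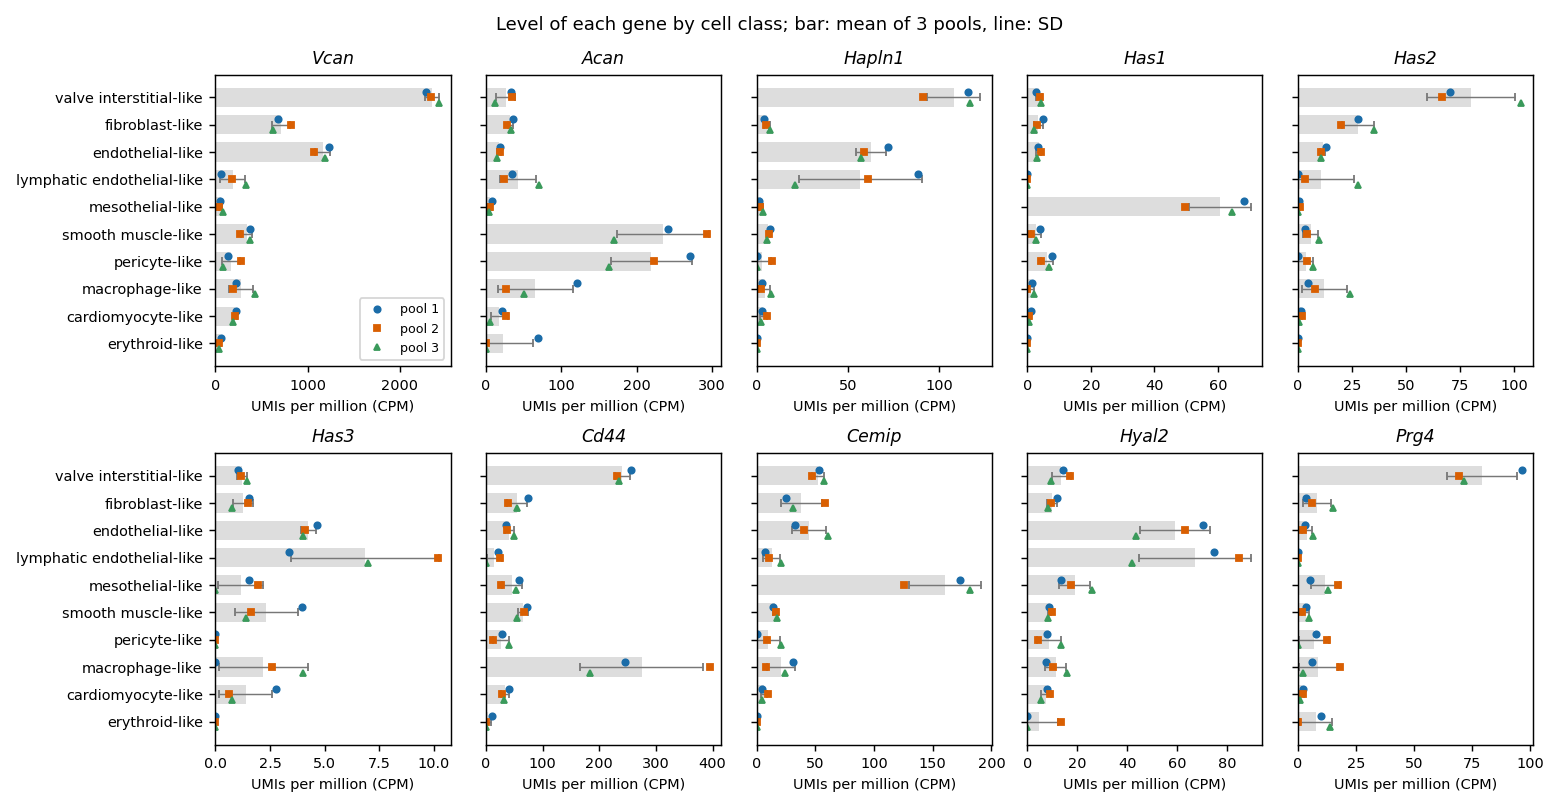
Levels of the 10 genes in the 10 compared cell classes, in CPM on the horizontal axis of each panel. Grey bars are the mean of 3 pools, lines the SD and symbols the pools, and the panels have separate scales: Vcan, Hapln1, Has2 and Prg4 have their longest bar in the valve interstitial-like class, Acan in the smooth muscle-like class (235 CPM), and Has1 and Cemip in the mesothelial-like class.

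The first question was whether the valve interstitial-like class differs from its closest mesenchymal relative, the fibroblast-like class. Hapln1, Prg4, Cd44, Vcan and Has2 were higher in valve interstitial-like nuclei, and none of the 9 tested genes was lower. By edgeR's quasi-likelihood test on UMIs summed per pool and class, with the pool as a block and Benjamini-Hochberg adjustment, 16% of 14250 genes were called at an adjusted p under 0.05 in this contrast, and 5 of the 9 were. The log2 differences, valve interstitial-like minus fibroblast-like, were 4.36 for Hapln1 (SE 0.24, adjusted p = 1.11e-16), 3.49 for Prg4 (SE 0.34, adjusted p = 1.79e-10), 2.10 for Cd44 (SE 0.18, adjusted p = 4.18e-12), 1.73 for Vcan (SE 0.25, adjusted p = 1.15e-06) and 1.52 for Has2 (SE 0.23, adjusted p = 2.83e-06). Cemip was 0.56 with an adjusted p of 0.130, and its value without pool 2 was 1.02 with an adjusted p of 0.00247. Acan (-0.26), Hyal2 (0.43) and Has1 (-0.06) did not pass the test. The edgeR p-values rest on the spread left between libraries after class and pool are fitted. That spread comes from 3 pools of 1 strain.

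Against the smooth muscle-like class the lecticans moved in opposite directions. In this contrast 27.2% of genes were called, and of the 9 tested 6 were higher and 1 lower. Acan was lower in the valve interstitial-like class, with a log2 difference of -3.28 (SE 0.22, edgeR adjusted p = 1.51e-15), while Vcan was higher by 2.64 (SE 0.26, adjusted p = 6.72e-11). Prg4 was higher by 4.36, Hapln1 by 3.89, Has2 by 3.80, Cd44 by 1.73 and Cemip by 1.63. The Acan difference lay between -3.71 and -2.97 over 16 alternative settings and passed the test in each of them.

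Against the endothelial-like class 38.5% of genes were called, and of the 9 tested 5 were higher and 1 lower. The differences were 4.50 for Prg4, 2.70 for Has2, 2.61 for Cd44 and 1.01 for Vcan (SE 0.25, edgeR adjusted p = 0.000932). Hyal2 was the gene that was lower (-2.11, SE 0.20, edgeR adjusted p = 1.11e-11). With DESeq2's size factors the share of all calls that were higher moved from 46.0% to 57.2% and the median of all genes from -0.04 to 0.07, and the members kept their calls.

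Hapln1 was higher in the valve interstitial-like than in the endothelial-like class by 0.77 (SE 0.13, edgeR adjusted p = 6.92e-06), but this difference was not found without the mitochondrial limit, where it was -0.027 (edgeR adjusted p = 0.940). Of the deposited Hapln1 UMIs, 50.5% lay in analysed nuclei, against 72.5% of all UMIs, 56.3% for Hyal2 and 77.7% for Has2. When nuclei were clustered without the limit, the endothelial-like class had 762 nuclei over it and 2717 at or under it. Its Hapln1 level was 281, 321 and 341 CPM over the limit and 72.0, 56.6 and 58.6 CPM at or under it, a gap seen in every pool. Hyal2 (142 ± 26.1 against 58.6 ± 13.6 CPM) and Cemip (108 ± 12.3 against 43.7 ± 13.3 CPM) were also higher over the limit, and Vcan stood at 1456 ± 23.8 against 1186 ± 85.1 CPM.

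These nuclei were unevenly spread over the endothelial-like clusters. Of 878 nuclei in the cluster led by Kcnc2, Wnt9b, Fam155a and Wnt4, 51.7% were over the limit (54.6%, 56.2% and 41.3% by pool), against 7.99% of 976 nuclei in the cluster led by Grid1 and Col23a1. Within the Kcnc2 cluster Hapln1 was 410.0, 392 and 441 CPM over the limit and 292, 211 and 183 CPM at or under it, while Cemip differed little (156 ± 10.5 against 152 ± 21.2 CPM). The median depth was similar on both sides, 5378.5 and 5037 UMIs. What the mitochondrial share has to do with the Hapln1 level was not tested.

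**Figure D2:**
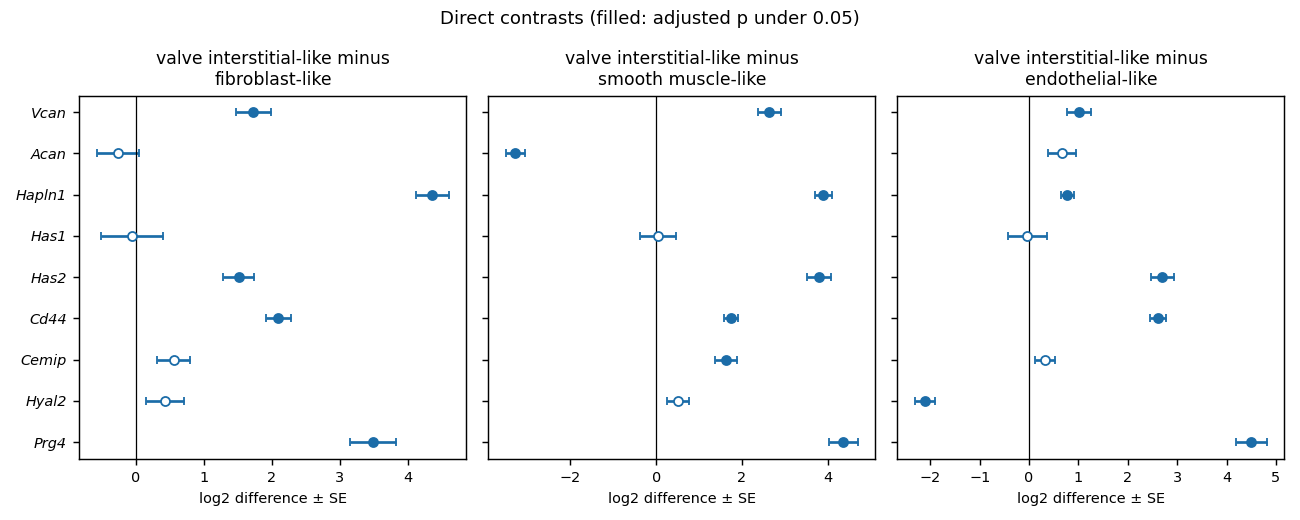
Log2 differences of the 9 tested genes between the valve interstitial-like class and 3 other classes, with SE, from the edgeR fit on 3 pools. Filled points have an adjusted p under 0.05: Acan is the filled point left of 0 against smooth muscle-like nuclei (-3.28) and Hyal2 against endothelial-like nuclei (-2.11).

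Each class was also compared with the mean of the other 9. In this comparison the erythroid-like class, in which several of the genes were not counted, shifts the means: the median of all genes was 0.25 for the valve interstitial-like class, and -0.02 when the erythroid-like class was left out. Counts are therefore given with and without it. In the valve interstitial-like class 27.8% of genes were called, and of the 9 tested 6 were higher and 1 lower. The higher genes were Has2 (4.60), Hapln1 (4.48), Prg4 (4.37), Vcan (3.20), Cd44 (2.53) and Cemip (2.14), and Acan was lower (-0.75, edgeR adjusted p = 0.0297). The counts were the same, 6 and 1, when erythroid-like nuclei were left out, where 34.2% of all genes were called. Prg4 was then the largest (4.68), with Has2 at 3.91, Hapln1 at 3.70, Vcan at 3.06, Cd44 at 2.26 and Cemip at 1.21. The Acan call was lost in 6 of 16 alternatives and its value was 0.29 without pool 1 and -0.59 (edgeR adjusted p = 0.0619) without pool 3. The share of higher calls among all genes was 72.8% with and 52.0% without erythroid-like nuclei, and 61.2% with DESeq2's own test.

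In the endothelial-like class 29.5% of genes were called, with 5 of the 9 higher (Hapln1 3.63, Hyal2 2.16, Vcan 2.07, Cemip 1.80 and Has2 1.60) and Acan lower (-1.49), and 5 higher and 2 lower without erythroid-like nuclei, where 36.7% of all genes were called. The values of Cemip, Has2 and Hapln1 were 0.84, 0.86 and 2.83 without those nuclei. The Acan difference was -0.25 without pool 1 and did not pass the test there. The Has2 call (edgeR adjusted p = 0.0155) was lost in 6 of 16 alternatives, with an adjusted p of 0.0588 with no replicate block, 0.341 without pool 1 and 0.0735 without pool 2. The split of all calls toward higher was 77.9% with erythroid-like nuclei, 55.1% without them and 66.5% with DESeq2's size factors, and it turned to 48.9% with DESeq2's own test. In the lymphatic endothelial-like class 17.2% were called, with Hapln1 (3.55) and Hyal2 (2.33) higher and Vcan lower (-1.14). The Vcan call was lost without pool 1 (-0.65, edgeR adjusted p = 0.281) and with no mitochondrial limit (-0.38, adjusted p = 0.293). Without erythroid-like nuclei 2 were higher and 2 lower, with 21.4% of all genes called and Hapln1 at 2.82. Hapln1 and Hyal2 were thus the 2 genes called higher in both endothelial classes.

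In the mesothelial-like class 45.3% of genes were called. Has1 (5.85) and Cemip (4.21) were higher and Acan (-2.82) and Vcan (-2.58) lower. Without erythroid-like nuclei 3 were higher and 4 lower, where 57.3% of all genes were called and Prg4 was the added higher gene (1.60). Has1 was then 5.43 and Cemip 3.37. With erythroid-like nuclei kept, the Acan call was lost without pool 1. All calls split 72.1% toward higher, 59.3% without erythroid-like nuclei and 59.1% with DESeq2's size factors, and the split turned to 46.5% with DESeq2's own test. In the fibroblast-like class 22% were called, with Has2 (2.92), Cemip (1.52) and Vcan (1.28) higher. Without erythroid-like nuclei 2 were higher and 2 lower, where 27.1% were called and Has2 was 2.19. Cemip there had an edgeR adjusted p of 0.0464 and lost its call in 5 of 16 alternatives, among them without erythroid-like nuclei (0.56, adjusted p = 0.123) and without pool 2 (1.13, adjusted p = 0.365).

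In the smooth muscle-like class 32.3% were called, and Acan was higher by 2.89. Cd44 was higher by 0.60 with an edgeR adjusted p of 0.0413, and 0.25 (adjusted p = 0.285) without erythroid-like nuclei. That call was lost in 12 of 16 alternatives, among them without pool 1, where the value was 1.36 (adjusted p = 0.101), and without pool 2 (0.48, adjusted p = 0.132). Without erythroid-like nuclei 1 gene was higher and 1 lower, with 41.7% of all genes called. The share of higher calls among all genes there fell from 78.6% to 46.8%, and it was 56.6% with DESeq2's own test. In the pericyte-like class 10.3% were called, with Acan higher (2.60) and Vcan lower (-0.97), the same counts as without erythroid-like nuclei, where 11.7% were called. The Vcan call was lost without pool 1 (-0.85, edgeR adjusted p = 0.161) and without pool 3 (-0.60, adjusted p = 0.286), and without pool 2 the value was -1.61. In the macrophage-like class 23.1% were called, with Cd44 higher (2.60), and 2 genes without erythroid-like nuclei, where 26.9% were called. In the cardiomyocyte-like class 46% were called, with Acan (-1.05) and Hyal2 (-0.79) lower, and 0 higher and 6 lower without erythroid-like nuclei, where 61.3% were called. The Acan value was 0.039 without pool 1, and the Hyal2 call was lost without pool 2 (-0.097) and without pool 3 (-0.70). With no mitochondrial limit both calls were lost, at -0.09 for Acan (edgeR adjusted p = 0.843) and -0.14 for Hyal2 (adjusted p = 0.758). In that class the split of all calls was 68.5% higher with erythroid-like nuclei, 52.1% without them and 50.5% with DESeq2's own test. In the erythroid-like class 6.72% were called, and edgeR called 0 of the 9, with 1 at an unadjusted p under 0.05.

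The share of nuclei with at least 1 UMI gives another view of the same levels. Each nucleus was thinned to 1000 UMIs so that depth was equal. Cardiomyocyte-like nuclei were taken as the background class, since free RNA can enter any droplet. They are no uniform background: the mean level in their 5 clusters ran from 130.5 to 663 CPM for Vcan and from 5.25 to 90.1 CPM for Acan. In this class free RNA and expression in some of the nuclei were not told apart. Vcan was found in 67.9% ± 2.97 of the valve interstitial-like nuclei (SD, n = 3 pools), against 45.3% ± 2.20 in the endothelial-like class and 15.4% ± 1.04 in the background class. Hapln1 was found in 6.67% ± 1.37 of valve interstitial-like and 3.69% ± 0.282 of endothelial-like nuclei, against 0.578% in the background class.

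Has2 (6.78% ± 1.08 against 0.160%), Prg4 (5.18% ± 1.01 against 0.201%) and Cd44 (18.7% ± 2.48 against 3.31%) were found in more valve interstitial-like than cardiomyocyte-like nuclei. Acan was found in 17.8% ± 3.97 of smooth muscle-like nuclei against 2.27%. Unthinned, with median depths of 3597 UMIs in valve interstitial-like and 4972 in cardiomyocyte-like nuclei, the valve interstitial-like shares were 85.8% for Vcan, 19.2% for Hapln1, 17.1% for Has2, 10.8% for Prg4 and 41.2% for Cd44. The unthinned cardiomyocyte-like shares were 38.4%, 1.78%, 0.696%, 0.923% and 12.2% for the same genes. Vcan was the gene found in most valve interstitial-like nuclei (1313 of 1533), and the other members were each missing from most of them at this depth.

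The valve interstitial-like class held 2 clusters, and 6 of the 8 genes tested differed between them. The cluster led by Rmst and Adamts19 (475 nuclei) was compared with the cluster led by Ctnna2 and Abi3bp (1058 nuclei), neither of which was formed with these genes. In this contrast 16.2% of 10166 genes were called, and of the 8 tested 2 were higher and 4 lower in the Rmst cluster. Vcan was 3361 ± 24.2 CPM in the Rmst cluster and 1762 ± 141 CPM in the Ctnna2 cluster (log2 difference 0.96, SE 0.07, edgeR adjusted p = 1.92e-14). Hapln1 was 182, 135 and 204 CPM against 72.9, 68.9 and 66.4 CPM (1.32, SE 0.14, edgeR adjusted p = 4.21e-10). The 2 clusters did not overlap for either gene.

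Cemip went the other way, at 3.53, 1.73 and 23.5 CPM in the Rmst cluster and 84.2, 69.8 and 76.7 CPM in the Ctnna2 cluster (-3.30, SE 0.33, edgeR adjusted p = 7.20e-11). Its size varied from -4.68 to -2.59 over 7 alternatives, and the call was kept in each. Acan was also lower in the Rmst cluster (8.39 ± 4.96 against 36.2 ± 18.6 CPM, log2 difference -1.97, edgeR adjusted p = 4.11e-06). Has2 (-0.64, adjusted p = 0.00532) and Cd44 (-0.51, adjusted p = 0.000676) were lower in the edgeR fit. With no replicate block they were -0.61 and -0.51 (adjusted p = 0.256 and 0.0708), and by DESeq2 -0.61 and -0.50 (adjusted p = 0.345 and 0.103), so the sizes stayed close and the calls depend on the fit. Has2 also lost its call without pool 1 (-0.40, adjusted p = 0.320).

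Prg4 was level between the clusters, at 81.3 ± 15.7 and 78.2 ± 15.9 CPM (log2 difference 0.08, SE 0.16, edgeR adjusted p = 0.823). In the Ctnna2 cluster 182 nuclei had a Has2 UMI and 103 a Prg4 UMI, and 13 had both, which is 7.14% of nuclei with Has2 and 10.3% of those without it. In the Rmst cluster the shares lay the other way, with Prg4 in 20.8% of the 77 nuclei with Has2 and 11.8% of those without. Nuclei with Has2 were the deeper ones in both clusters, with a median of 3838.5 against 3170.5 UMIs in the Ctnna2 and 4514 against 4143 UMIs in the Rmst cluster.

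The endothelial-like class was more divided. Its cluster led by Kcnc2, Fam155a, Wnt9b and Pthlh (417 nuclei) carried all 11 endothelial markers, and 23.2% of 10331 genes were called there against the mean of the other 5 clusters tested. Of the 7 genes tested 5 were higher and none lower: Hapln1 at 291, 201 and 172 CPM (log2 difference 3.39, SE 0.21, edgeR adjusted p = 7.66e-13), Cemip at 133, 157 and 173 CPM (3.03), Cd44 at 84.9 ± 27.3 CPM (1.46), Hyal2 at 113 ± 27.3 CPM (1.35) and Vcan at 1338 ± 305 CPM (1.27). This cluster held 606 of the 941 Hapln1 UMIs of the endothelial-like class. The counts were uneven within it: 21 nuclei with 10 or more UMIs held 55.8% of the Hapln1 UMIs and 13 nuclei held 50.1% of the 385 Cemip UMIs.

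Hapln1 was found in 121 and Cemip in 89 of the 417 nuclei of the Kcnc2 cluster. Only 23 had both, so Cemip was in 19.01% of nuclei with Hapln1 and 22.3% of those without. Hyal2 was in 49.6% of nuclei with Hapln1 and 32.8% of those without, whose median depths were 6075 and 4904 UMIs. After thinning to 1000 UMIs the shares in this cluster were 13.4% for Hapln1, 9.97% for Cemip and 10.2% for Hyal2.

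Vcan was spread differently. In the cluster led by Grid1 and Col23a1 (963 nuclei), 27.5% of genes were called, Vcan (1682 ± 119 CPM, log2 difference 1.70) and Has2 (18.5 ± 5.37 CPM, 1.58) were higher, and Cd44 (-0.97) and Cemip (-1.50) lower. The Cemip call there was lost with no replicate block (edgeR adjusted p = 0.0620) and without pool 3 (-0.41, adjusted p = 0.641), and the Cd44 call without pool 3 (adjusted p = 0.0633). In the cluster led by Cytl1 (572 nuclei), 20.5% were called, Vcan was higher (1525 ± 126 CPM, 1.56) and Hapln1 lower (8.71 ± 5.42 CPM, -1.88). High Vcan was therefore found both in a cluster with much Hapln1 and in a cluster with little.

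The other 3 endothelial-like clusters tested had lower Vcan. A small cluster led by Kif23 and Mki67, genes of dividing cells (54 nuclei, with 29, 11 and 14 in the 3 pools), was not tested and had 909 ± 67.7 CPM of Vcan. In the cluster led by Dlgap2 (249 nuclei), 23.8% were called, Hapln1 was higher (78.7 ± 31.5 CPM, 1.54) and Cd44 (-1.76) and Vcan (-0.75) lower. In the cluster led by Mannr (240 nuclei), 21.7% were called, Cd44 was higher (0.98) and Hapln1 (-2.27), Vcan (-1.84) and Hyal2 (-0.92) lower. In the cluster led by Pcdh17 (236 nuclei), 27.3% were called, Acan was higher (38.9 ± 22.5 CPM, 1.41) and Vcan lower (-1.94). Without pool 1 the calls of Cd44, Hapln1 and Hyal2 in the Mannr cluster (0.89, -1.18 and -0.67, with an edgeR adjusted p of 0.166, 0.0872 and 0.176), of Acan in the Pcdh17 cluster (0.72, adjusted p = 0.364) and of Vcan in the Dlgap2 cluster (-0.54, adjusted p = 0.115) were lost. Without pool 2 Hapln1 was -3.60 in the Mannr cluster.

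In the smooth muscle-like class, 4 members passed the limit on low counts in the cluster fit and 3 clusters were tested. The cluster led by Mylk4 (1192 nuclei, 14% of 9307 genes called) had more Acan (297 ± 41.0 CPM, log2 difference 1.01) and less Cd44 (-0.42, a call lost in 5 of 7 alternatives, among them without pool 1 and without pool 2, with an edgeR adjusted p of 0.603 and 0.160). The cluster led by Xkr4 (411 nuclei, 9.07% called) had more Cemip (51.7 ± 16.2 CPM, 2.63), Cd44 (0.78, edgeR adjusted p = 0.164 without pool 1) and Acan (0.59) and less Vcan (-0.61, edgeR adjusted p = 0.0995 with no replicate block).

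The cluster led by Clca3a2 (1173 nuclei, 21% called) had more Vcan (445 ± 101.4 CPM, 0.76) and less Acan (96.4 ± 23.5 CPM, -1.60) and Cemip (-2.16). It matched 4 smooth muscle and 4 pericyte markers. Vcan and Acan thus moved in opposite directions in the Clca3a2 cluster and, the other way round, in the Xkr4 cluster. Each cluster is set against the mean of the others, so these contrasts are not independent of one another. The ranges of Acan did not overlap between the Clca3a2 and the Mylk4 cluster. Another cluster, led by Igfbp2 and Sost (202 nuclei, 10 of them in pool 3), was too small for the test and had 427 ± 104 CPM of Acan, which was also among its leading genes although clusters were formed without it.

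**Figure D3:**
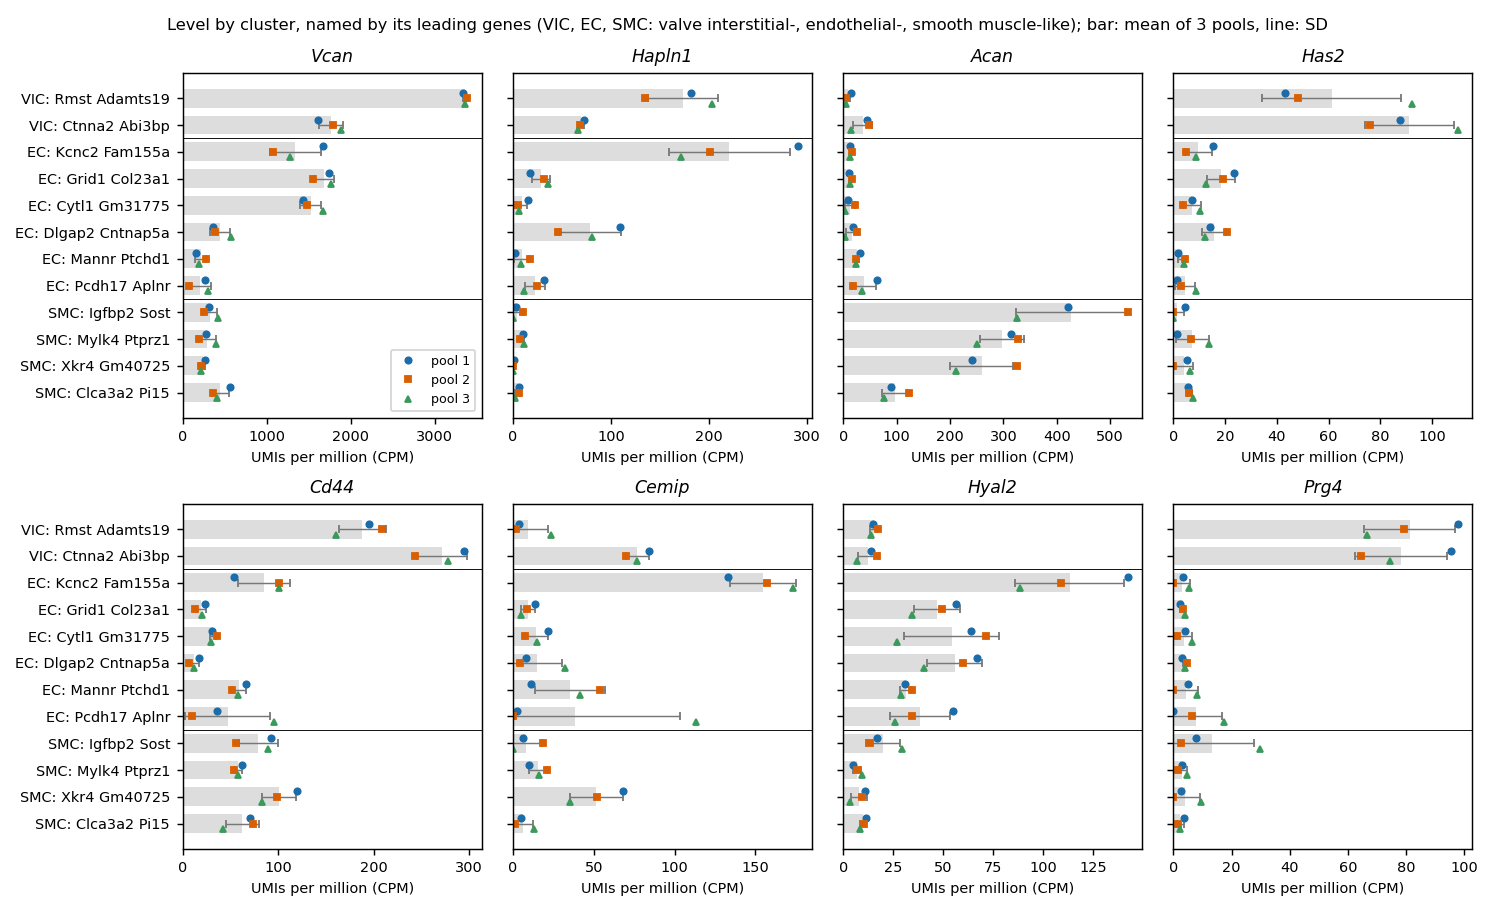
Levels of 8 genes in the valve interstitial-like (VIC), endothelial-like (EC) and smooth muscle-like (SMC) clusters, named by leading genes, in CPM. Bars are means of 3 pools, lines the SD and symbols the pools: Vcan is 3361 CPM in the Rmst cluster against 1762 CPM in the Ctnna2 cluster, and Hapln1, Cemip and Hyal2 share their longest endothelial-like bar in the Kcnc2 cluster.

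EGFP from the Scx allele was counted in few nuclei, with 559 UMIs in 492 nuclei. The valve interstitial-like class had the highest mean level, 30.2 ± 7.27 CPM from 185 UMIs, against 3.42 ± 1.02 CPM in the cardiomyocyte-like class. Valve interstitial-like nuclei with an EGFP UMI were each matched to 1 nucleus of the same pool with none and the nearest UMI total, which gave 79, 52 and 29 pairs. In this comparison 0.437% of 5493 genes were called, and of the 6 tested 1 was called and 3 had an unadjusted p under 0.05.

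Prg4 was the gene called, and it was higher in nuclei with EGFP, with a log2 difference of 2.63 (SE 0.45, edgeR adjusted p = 0.00426). The level was 228 against 16.5 CPM in pool 1, 99.6 against 11.2 CPM in pool 2 and 70.1 against 67.3 CPM in pool 3. In UMIs these were 83 against 6, 27 against 3 and 9 against 8, found in 16 against 4, 11 against 2 and 9 against 4 nuclei. Pool 3 thus showed little difference in level, and in pool 1 a single nucleus held 23 of the 83 UMIs.

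The Prg4 call was not stable. Its value was 1.38 (edgeR adjusted p = 0.275) when nuclei were matched within clusters, 2.59 (adjusted p = 0.263) with no replicate block and 1.56 (adjusted p = 0.2003) without pool 1. The call was kept in 4 of 7 alternatives, among them without pool 2 (2.41) and without pool 3 (3.57). Nuclei with EGFP were in the Ctnna2 cluster in 58 of 79, 38 of 52 and 24 of 29 cases, against 48, 35 and 17 of their matched partners.

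Hapln1 was lower in nuclei with EGFP in each pool (107 against 151, 66.4 against 172 and 31.2 against 151 CPM), with a log2 difference of -1.06 that did not pass the test (edgeR adjusted p = 0.128). It passed without pool 1 (-1.62, adjusted p = 0.0149), and with nuclei matched within clusters it was -0.58 (adjusted p = 0.916). Hapln1 was found in 20 against 19, 11 against 11 and 3 against 11 nuclei with and without EGFP in pools 1, 2 and 3. Among nuclei without EGFP, 2 held 14 and 8 of the 55 UMIs in pool 1, and 2 held 16 and 15 of the 46 UMIs in pool 2. Cemip was -1.40 (adjusted p = 0.430) and its value was 0.38 without pool 1, the pool in which 2 nuclei held 34 and 24 of the 62 UMIs of nuclei without EGFP. Without pool 3 it was -1.43 and passed (adjusted p = 0.0141). Vcan (-0.28), Cd44 (0.35) and Has2 (0.37) did not pass the test.

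Acan was under the limit on low counts here and was not among the 6 genes tested. Its level was higher with EGFP in each pool, at 44.0 against 24.8, 125 against 14.95 and 31.2 against 8.41 CPM, from 16 against 9, 34 against 4 and 4 against 1 UMIs. In pool 1 a single nucleus with EGFP held 7 of the 16 UMIs, and 9 nuclei in each arm had an Acan UMI. In pool 2 a single nucleus held 10 of the 34, and 15 nuclei with EGFP and 3 without had an Acan UMI. With no filter on low counts its log2 difference was 1.89 (edgeR adjusted p = 0.0158).

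**Figure D4:**
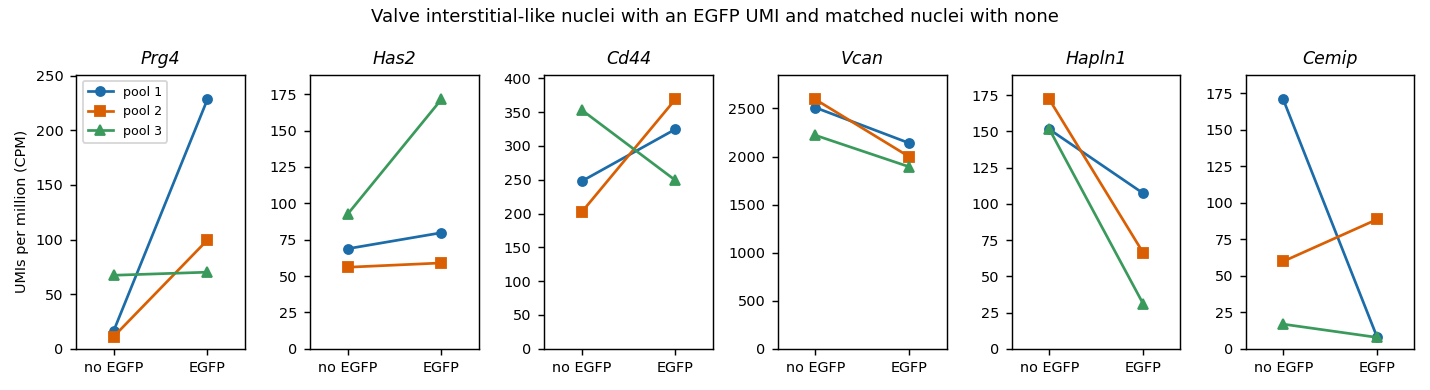
Levels of 6 genes, in CPM, in valve interstitial-like nuclei with an EGFP UMI and in depth-matched nuclei without one, 1 line per pool. Prg4 rises steeply in pools 1 and 2 (16.5 to 228 and 11.2 to 99.6 CPM) and hardly in pool 3 (67.3 to 70.1 CPM). The level of Hapln1 is lower with EGFP in each pool. It was found in 20 nuclei with and 19 without EGFP in pool 1, and in 11 and 11 in pool 2.

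The other genes of hyaluronan and lectican biology were taken from a list of 43, of which 31 passed the limit on low counts. Against fibroblast-like nuclei 5 of the 31 were higher and 7 lower in valve interstitial-like nuclei, where 16% of all genes were called, with a median log2 difference of -0.10 against -0.02 for all genes. Adamts20 (3.40), a versican-cleaving protease, and the hyaluronan-binding proteins Itih5 (1.26) and Tnfaip6 (1.10) were higher, as was the hyaluronidase Cemip2 (0.90). The proteases Adamts9 (-2.26), Adamts5 (-1.84) and Adamts4 (-1.17) and the sugar precursor enzyme Gfpt2 (-1.70) were lower.

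Of the 7 versican and aggrecan proteases on the list, 1 was higher and 4 were lower in valve interstitial-like than in fibroblast-like nuclei, with the same counts, 1 and 4, against smooth muscle-like nuclei. The share of all genes called was 16% and 27.2% in these contrasts. Adamts20 was the higher one in both (3.75 against smooth muscle-like nuclei), and Adamts9 was lower in both (-2.82 in the second). Against smooth muscle-like nuclei 10 of the 31 were higher and 6 lower, with Itih5 (4.82), Gfpt2 (2.68) and Tnfaip6 (2.44) higher and Itih4 (-2.68), Adamts1 (-1.96) and Adamts5 (-1.60) lower.

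Against endothelial-like nuclei, where 38.5% of all genes were called, 10 of the 31 were higher and 11 lower. Adamts20 (5.85), Itih5 (4.22), Tnfaip6 (4.09) and Fbln1 (2.96), a lectican binding partner, were higher. The scavenger receptor Stab1 (-4.29), Adamts9 (-2.49), the hyaluronan receptor Hmmr (-2.18) and Adamts1 (-2.13) were lower. Stab1 was listed with the hyaluronan receptors, and its uptake of hyaluronan was not measured. Hmmr is also a gene of dividing cells. Of the 5 hyaluronan receptors on the list, none was higher and 4 were lower in the valve interstitial-like class here, against the same 38.5%.

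Against the mean of the other classes, 15 of the 31 were higher and 4 lower in the valve interstitial-like class, where 27.8% of all genes were called, with a median of 0.69 against 0.25 for all genes. Without erythroid-like nuclei 15 were higher and 7 lower, with 34.2% of all genes called and a median of 0.31 against -0.02. The 7 enzymes that make the sugar precursors of hyaluronan counted 5 higher and none lower in both fits. With erythroid-like nuclei these were Gfpt2 (2.08), Ugdh (1.61), Gnpnat1 (1.56), Pgm3 (0.98) and Gfpt1 (0.74), and without them Gfpt2 was 1.21 and Gnpnat1 0.67.

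The mesothelial-like class, with 45.3% of all genes called, also had 5 of the 7 precursor enzymes higher, led by Gfpt2 (4.54) and Uap1 (3.94), and the fibroblast-like class, with 22% called, had 5 higher, with Gfpt2 at 3.97. Both counts were again 5 without erythroid-like nuclei, where 57.3% and 27.1% of all genes were called. The cardiomyocyte-like class had 3 of the 31 higher and 15 lower, with 46% of all genes called, and 3 higher and 24 lower without erythroid-like nuclei, with 61.3% called. Smooth muscle-like nuclei had 5 of the 7 proteases higher and none lower in both fits, with 32.3% of all genes called with and 41.7% without erythroid-like nuclei.

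**Figure D5:**
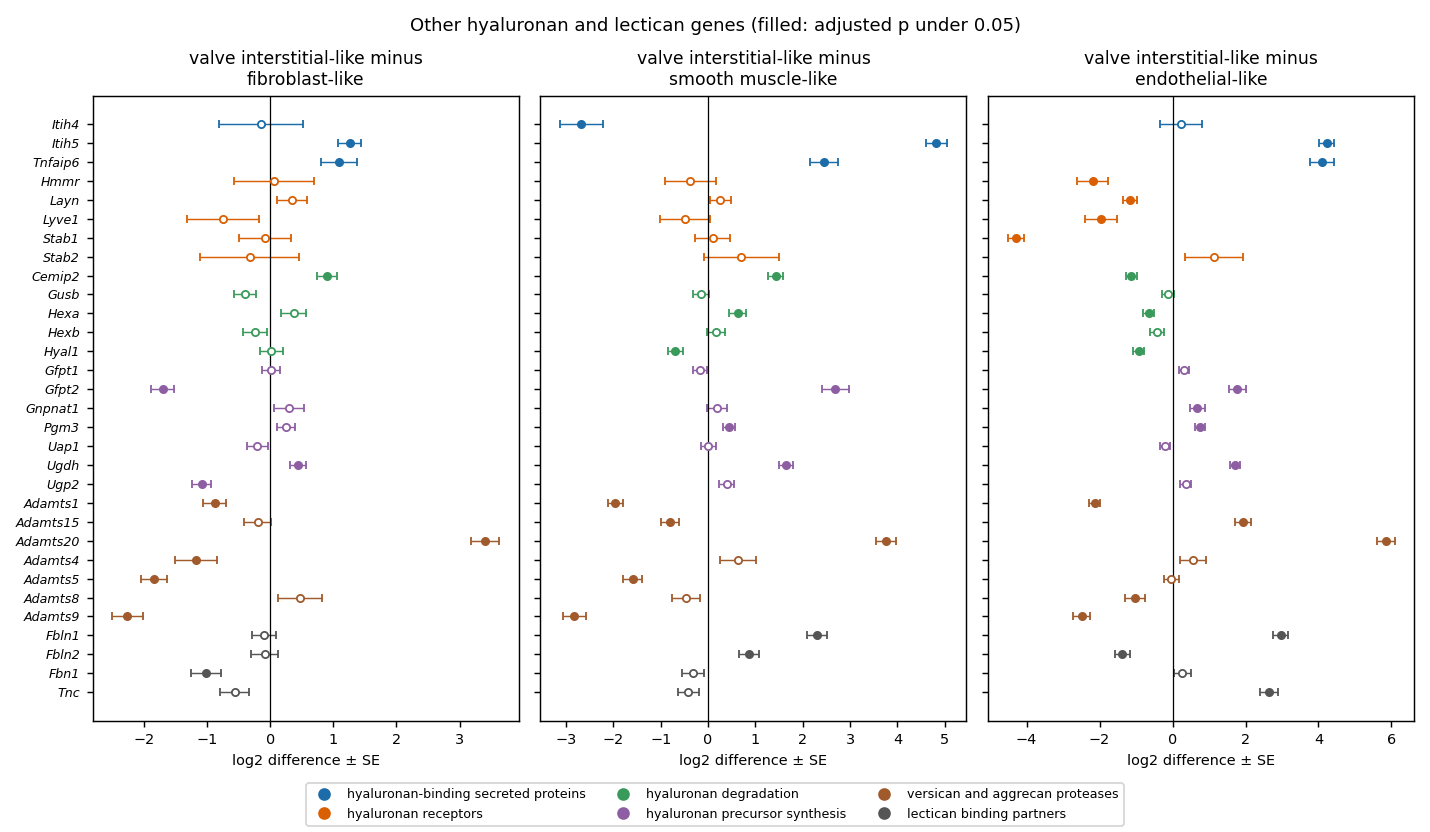
Log2 differences with SE of the other hyaluronan and lectican genes between the valve interstitial-like class and 3 other classes, coloured by role, from the edgeR fit on 3 pools. Filled points have an adjusted p under 0.05: Adamts20 lies far to the right in each panel (3.40, 3.75 and 5.85) and Adamts9 to the left (-2.26, -2.82 and -2.49).

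The genes whose levels ran most like each member were ranked by Pearson r of log2(CPM + 1) over 30 libraries, 3 pools of 10 classes, among 13467 genes. The 3 libraries of a class share a cell type and those of a pool come from the same sample, so r is a description. Has2 was the second most similar gene to Vcan (r = 0.879), after St3gal4 (0.902), a sialyltransferase, and Vcan was the most similar gene to Has2. Acan ran with Rgs5 (0.959), Lmod1 (0.951) and Mrvi1 (0.945), of which Rgs5 and Lmod1 were used as mural cell markers. Hapln1 ran with Eva1a (0.904), and Vcan was not among its 3 nearest genes.

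Has1 ran with Nkain4 (0.921) and Rspo2 (0.908), Cemip with Arhgef26 (0.925) and Arnt2 (0.913), and these genes had their highest level in the mesothelial-like class. Hyal2 ran with Piezo1 (0.897), a mechanosensitive channel, and Ece1 (0.869). Cd44 ran with Snx10 (0.902) and Prg4 with Slc41a2 (0.789), Pcdh15 (0.780) and Tnfaip6 (0.777). The value of Prg4 was the lowest nearest-gene r of the 9.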

How the data were processed

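Gene expression libraries of 3 pools were analysed, with 21254247 to 49918251 UMIs per pool. The authors deposited raw UMI counts per gene and barcode. Per the file headers, the tool was Cell Ranger 7.1.0. The submitters' processing notes list versions 7.0.1 and 7.1.0 and the genome GRCm39, and the annotation used for counting is not given in the sources used here. Counting is at the gene level, so reads of Has2 and its antisense neighbour Has2os may not be fully separated.

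Nuclei with at least 1000 UMIs and at most 5% mitochondrial UMIs (13 genes) were kept. Scrublet's automatic threshold marked 0 nuclei, so the highest scores, 0.8% per 1000 deposited nuclei, were set aside. Clusters were made with scanpy 1.11.5 (2000 variable genes, 30 components, 15 neighbours) and leidenalg 0.10.2 at resolution 1, leaving out the members and the 43 listed genes, and named where at least 3 markers of a class were detected. Sums per pool and class were tested with edgeR 4.0.16 (TMM, filterByExpr, quasi-likelihood) in R 4.3.3 with the pool as a block, since the classes of 1 pool share a library. Deviations from class means correlated at a mean of 0.138 between libraries of the same pool. The mean of -0.07 between pools largely follows from this, since the deviations of a class cancel out over its pools. The script was tested on simulated data. DESeq2 1.42.0, other filters, depths, resolutions, pools left out and no block were alternatives. Leaving out the erythroid-like class, the Clca3a2 cluster or the Erc2 cluster was an alternative chosen after seeing the data; without the Clca3a2 cluster, Cemip in the fibroblast-like class lost its call. Shares used nuclei thinned to 1000 UMIs. Named genes were the members, up to 4 listed genes per direction and contrast, and the 3 most similar genes of each member; other listed genes named by role were chosen after their values were seen. The members and lists were chosen with earlier results of these data known. Promoter sequences are from RefSeq.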

Additional observations from a re-analysis of the deposited data

Results flagged for a closer look

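A cluster of 576 nuclei led by Neil3, Diaph3, Knl1 and Kif15, genes of dividing cells, matched too few markers to be named and entered no comparison. It held the following members above the level of the cardiomyocyte-like class in every pool. Vcan was 603 ± 169 CPM (SD, n = 3 pools), Acan 177 ± 68.5 CPM and Cd44 105 ± 16.5 CPM. Has2 was 32.1 ± 9.27 CPM, Hapln1 20.2 ± 6.98 CPM and Cemip 18.1 ± 5.77 CPM. The levels of Vcan and Acan in this cluster lay between those of the valve interstitial-like class (2348 and 26.2 CPM) and the smooth muscle-like class (340.5 and 235 CPM).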

How the results depend on the processing

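Of 89 results for named members, 60 kept their direction and side of the threshold under every alternative run, and 27 lost the call or changed direction in 1 or more. Beyond those given in the report, Cemip against endothelial-like nuclei was -0.15 with no mitochondrial limit, and Hapln1 -0.027. With 1 pool left out at a time, Acan ran from -1.48 to 0.039 in the cardiomyocyte-like and from -0.99 to 0.29 in the valve interstitial-like class, Prg4 from -0.0052 to 0.17 between the valve interstitial-like clusters, and Cemip from -1.43 to 0.38 with EGFP. The number of lower calls over all classes was 8, and 13 at 500 UMIs, 18 by DESeq2, 19 without the erythroid-like class and 2 to 8 with a pool left out. Lower calls over all genes moved too, from 6.87% of tests to 9.24%, 12.99%, 15.8% and 3.42% to 5.08% in the same order, so nothing about the members is read from this. Lower calls against endothelial-like nuclei were 2 with no filter; between valve interstitial-like clusters 2 by DESeq2 and 2 with no replicate block, in place of 4; between smooth muscle-like clusters 2 with no replicate block. With EGFP, higher calls were 0 within clusters, 2 with no filter, 0 with no replicate block and 0 to 2 with a pool left out, and lower calls 0 to 1. By DESeq2, 4 of the 6 members had no adjusted p there. The listed genes had 51 lower calls over all classes, and 77 by DESeq2, 84 without the erythroid-like class and 28 to 51 with a pool left out, beside the same moves over all genes. With no replicate block 9 of the calls for single genes were lost, with an edgeR adjusted p of 0.0588 to 0.263, and the others kept theirs. Shares rose with depth: thinned to 2000 UMIs and unthinned they were, in valve interstitial-like nuclei, 81.9% and 85.8% for Vcan, 12.95% and 19.2% for Hapln1, 12.5% and 17.1% for Has2, 7.54% and 10.8% for Prg4 and 28.9% and 41.2% for Cd44, 6.32% and 10.6% for endothelial-like Hapln1, and 29.0% and 40.0% for smooth muscle-like Acan. Has3 and the small classes are limited by depth.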

Other observations

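Melanocyte-like nuclei, of which there were 69, were too few in pools 2 and 3 for the class comparison. They had the highest mean Cd44 level of the named classes, 398, 709 and 414 CPM in the 3 pools, from 159 UMIs. Has2os, the antisense neighbour of Has2, had 108 UMIs in all, 35 of them in the valve interstitial-like class (5.62 ± 0.806 CPM) and 13 in the fibroblast-like class (2.76 ± 1.53 CPM), the same leading classes as Has2. A cardiomyocyte-like cluster of 600 nuclei led by Mb and Myl3, with a median of 1971.5 UMIs, held 375 ± 54.8 CPM of Vcan and 90.1 ± 33.3 CPM of Acan, against 130.5 ± 9.76 and 5.25 ± 2.88 CPM in the largest cardiomyocyte-like cluster. Another cardiomyocyte-like cluster, led by Ryr3 and Cpne5 (201 nuclei), held 663 ± 84.2 CPM of Vcan and 10.4 ± 6.87 CPM of Acan. In the endothelial-like cluster led by Pcdh17, pool 3 had 113 CPM of Cemip against 2.74 and 0 CPM in pools 1 and 2.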
